A study of Homo sapiens with 32 samples.

Results

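The constitutive H3K27me3 bins are stretches of 10 kb of chromosomes 1 to 22 in which trimethylated lysine 27 of histone H3 was called in every library of the study. The chromosomes were cut into 287382 bins of 10 kb from position 1, and a bin was a member when called islands covered at least 50% of it in each of the 16 H3K27me3 libraries. This rule held for 27105 bins, 9.43% of all bins and 271.05 Mb of sequence. The members were chosen from the measured coverage, so their high coverage is a description and not a finding. Bins outside the rule are called variable where 50% was reached in 1 to 15 libraries (63961 bins, 22.3%), low where an island was present but 50% was reached in none (27896 bins), and empty where no library had an island (168420 bins, 58.6%).

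H3K27me3 is placed by Polycomb repressive complex PRC2, whose catalytic subunit is EZH2, and marks facultative heterochromatin, the chromatin of genes that a cell type keeps silent but that other cell types use. It can lie as narrow peaks at CpG island promoters or as broad domains that run over gene bodies and gene deserts. An EZH2 inhibitor blocks new methylation, and existing marks are then lost mainly through histone turnover and cell division.

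The cells were MDA-MB-231, an established line of triple-negative breast cancer, and the study asked what blocking EZH2, the stress kinase p38 or both does to the mark. Combo cells received the EZH2 inhibitor EPZ together with the p38 inhibitor labelled P38i, EPZ cells the EZH2 inhibitor alone (EP7 in the sample titles), P38i cells the p38 inhibitor alone, and Control cells no treatment; the treatments lasted 24 h. Each group had 4 ChIPmentation libraries, in which the transposase adds adapters to chromatin on the antibody beads, so each value below has n = 4 per group unless stated. The labels do not say whether replicates were separate cultures, so the spread between libraries may be technical, and all groups come from 1 cell line.

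The deposited lists give the start and end of each SICER island on build hg38 and no score or count, so read depth is unknown and coverage describes what was called, not how much of the mark was present. The lists held 1069155 islands, and single libraries covered from 462 to 656 Mb of chromosomes 1 to 22. Of 9 genes listed as mesenchymal and basal markers of MDA-MB-231 cells (such as VIM, CD44 and AXL, genes of the cytoskeleton and cell surface), all 9 had no island in any library. Their expression was not measured here. Among 12 luminal markers, PGR, the gene of the progesterone receptor, a protein that triple-negative tumours do not express, lay wholly inside constitutive bins. Of the 12, 9 had no island in any library. Most genes had none: 13936 of 19126 protein-coding genes on chromosomes 1 to 22 had no island in any library.

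The sequences below are the 250 bases before the start of genes whose start lies in a constitutive bin. They are shown because islands were often interrupted at CpG-rich starts, the pattern described further on, and capitals mark CpG dinucleotides. The first, of GNAL (the alpha subunit of the olfactory G protein), was added after its values were seen. The next 4 are the list genes wholly inside constitutive bins with the highest ratio of observed to expected CpG, and the last 4 those with the lowest. Sequences are from RefSeq on GRCh38.p14, each written 5′ to 3′ on the strand of its gene.

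GNAL (chr18:11689014-11689263, plus strand, 29 CpG): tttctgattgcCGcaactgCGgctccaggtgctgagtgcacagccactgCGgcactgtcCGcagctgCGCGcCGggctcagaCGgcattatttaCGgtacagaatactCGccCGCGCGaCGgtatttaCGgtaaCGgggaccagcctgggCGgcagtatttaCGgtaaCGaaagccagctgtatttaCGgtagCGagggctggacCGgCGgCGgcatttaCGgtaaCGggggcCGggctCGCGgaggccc

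ZNF883 (chr9:113012193-113012442, minus strand, 15 CpG): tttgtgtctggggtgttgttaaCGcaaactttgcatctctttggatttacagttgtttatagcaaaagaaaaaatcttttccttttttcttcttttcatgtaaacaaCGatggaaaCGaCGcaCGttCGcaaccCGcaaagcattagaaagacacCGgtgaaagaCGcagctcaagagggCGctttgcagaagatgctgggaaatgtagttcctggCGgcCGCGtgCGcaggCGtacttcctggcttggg

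ZNF229 (chr19:44448473-44448722, minus strand, 21 CpG): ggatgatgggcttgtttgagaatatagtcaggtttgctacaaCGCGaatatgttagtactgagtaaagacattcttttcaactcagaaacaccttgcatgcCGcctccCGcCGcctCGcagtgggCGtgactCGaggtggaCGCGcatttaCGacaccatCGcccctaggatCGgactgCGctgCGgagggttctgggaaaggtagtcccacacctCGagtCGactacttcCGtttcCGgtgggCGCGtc

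ZNF285 (chr19:44401609-44401858, minus strand, 12 CpG): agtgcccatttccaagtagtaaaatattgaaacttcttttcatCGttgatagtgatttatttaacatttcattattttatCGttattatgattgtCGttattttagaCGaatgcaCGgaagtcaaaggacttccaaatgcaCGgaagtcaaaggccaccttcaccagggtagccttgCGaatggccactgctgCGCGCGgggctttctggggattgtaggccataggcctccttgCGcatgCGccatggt

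KCNA4 (chr11:30017031-30017280, minus strand, 30 CpG): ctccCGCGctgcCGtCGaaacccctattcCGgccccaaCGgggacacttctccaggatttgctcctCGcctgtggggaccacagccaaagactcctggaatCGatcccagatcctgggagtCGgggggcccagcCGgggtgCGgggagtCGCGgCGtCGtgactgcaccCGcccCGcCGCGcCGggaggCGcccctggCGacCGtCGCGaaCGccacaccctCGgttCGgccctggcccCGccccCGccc

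CYP2C8 (chr10:95069498-95069747, minus strand, 0 CpG): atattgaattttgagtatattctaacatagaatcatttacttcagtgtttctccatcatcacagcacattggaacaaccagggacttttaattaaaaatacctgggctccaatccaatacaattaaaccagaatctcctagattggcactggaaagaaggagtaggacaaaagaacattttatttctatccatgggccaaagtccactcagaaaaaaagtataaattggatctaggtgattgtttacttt

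CYP3A4 (chr7:99784185-99784434, minus strand, 0 CpG): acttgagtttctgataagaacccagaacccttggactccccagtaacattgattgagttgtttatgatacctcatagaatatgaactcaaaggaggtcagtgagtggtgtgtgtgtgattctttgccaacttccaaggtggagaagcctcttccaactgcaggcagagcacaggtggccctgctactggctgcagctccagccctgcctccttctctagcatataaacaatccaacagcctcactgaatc

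DEFB119 (chr20:31390650-31390899, minus strand, 0 CpG): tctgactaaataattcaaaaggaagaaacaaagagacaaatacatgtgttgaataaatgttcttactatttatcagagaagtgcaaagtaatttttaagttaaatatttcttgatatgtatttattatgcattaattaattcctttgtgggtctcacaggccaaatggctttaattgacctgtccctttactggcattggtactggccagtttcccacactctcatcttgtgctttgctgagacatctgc

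KRTAP9-9 (chr17:41255134-41255383, plus strand, 0 CpG): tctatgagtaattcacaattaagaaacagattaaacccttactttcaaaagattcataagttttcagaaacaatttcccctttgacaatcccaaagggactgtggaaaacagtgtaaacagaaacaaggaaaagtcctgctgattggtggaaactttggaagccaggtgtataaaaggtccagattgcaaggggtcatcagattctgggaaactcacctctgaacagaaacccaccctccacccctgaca

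The GNAL, KCNA4 and ZNF229 sequences are dense in CpG, those of ZNF883 and ZNF285 hold 15 and 12 CpG, and the CYP2C8, CYP3A4, DEFB119 and KRTAP9-9 sequences hold none. In the 300-base window that runs 50 bases past the start, islands covered 0% of the GNAL window in all 16 libraries, although they covered at least 88% of its 10-kb bin in every library. The window of KCNA4, a voltage-gated potassium channel gene, was at 0% in 14 libraries, 26.7% in Combo replicate 3 and 100% in Control replicate 1. The window of ZNF229, a zinc finger gene, was covered 100% in all 16 libraries, and so were those of CYP2C8, a hepatic drug-metabolising P450, and DEFB119, a beta-defensin gene. The window of ZNF883 was at 14% in EPZ replicate 4 and 100% in the other 15 libraries, and that of ZNF285 at 0% in Combo replicate 2 and Control replicate 3 and 100% in the other 14. Of the 4 windows chosen for the highest CpG ratio, only that of KCNA4 was thus mostly uncovered; those of ZNF883 and ZNF285 have less than 50% GC. CYP3A4, the main drug-metabolising P450 of liver, had 0% in Combo replicate 1 and Control replicate 4 and 100% in the other 14 libraries. KRTAP9-9, a hair keratin-associated protein gene, ranged from 0 to 100% with a median of 22.3% over the 16 libraries; its family has near-identical copies, how reads between them were placed is unknown, and its values are uncertain.

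Of the 91066 bins that reached 50% in at least 1 library, 29.8% were constitutive and the rest variable, with 7204 that reached it in 15 libraries and 9253 in 1 library. Constitutive bins made up 69.4% of the 39029 bins at 50% or more in all 4 Combo libraries, 79.0% of 34308 in EPZ, 59.4% of 45667 in P38i and 66.1% of 40989 in Control.

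**Figure D1:**
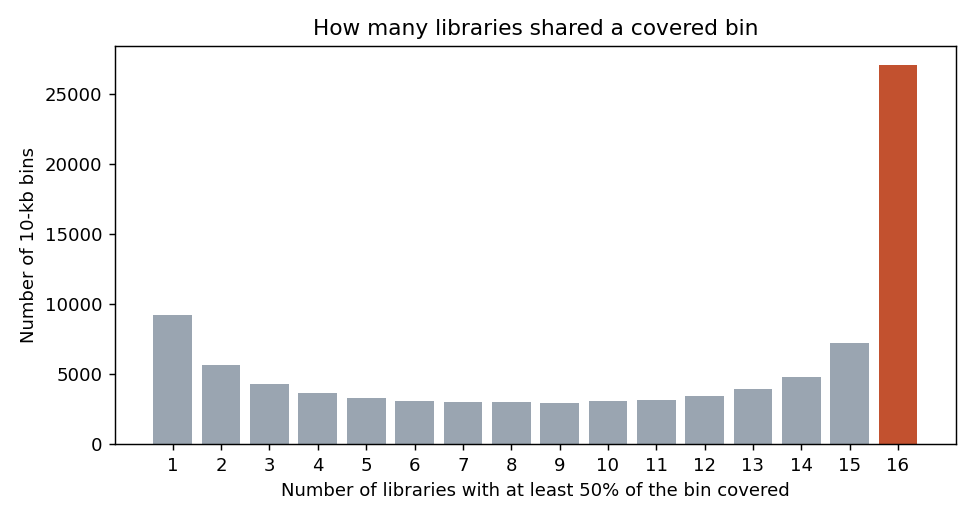
Number of 10-kb bins (y axis) against the number of libraries in which at least 50% of the bin was covered (x axis, 1 to 16). Grey bars are variable bins and the bar at 16 is the 27105 constitutive bins; the count is 9253 at 1 library and 7204 at 15.

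Within the members, coverage was mostly well above the threshold. The lowest library of a member had a median of 78% covered (quartiles 64 and 88%), the mean over 16 libraries had a median of 94.8%, and 1663 members (6.14%) were covered whole in all 16. Members close to the threshold were 4805 bins (17.7%) whose lowest library lay under 60%. Just inside the rule stood 955 bins with a lowest library at exactly 50%, such as chr11:101690001-101700000, and just outside stood 949 bins at 48%, such as chr13:42420001-42430000. Coverage moves in steps of 2%, since islands are built from windows of 200 bp.

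Mean coverage of the members differed little between treatments. The members were covered on average 91.2, 91.4, 94.7 and 93.2% in the 4 Combo libraries, 88.0, 89.0, 93.1 and 94.0% in EPZ, 95.9, 94.6, 96.8 and 91.0% in P38i, and 96.7, 94.0, 93.1 and 88.2% in Control. The groups overlapped, and the range within Control, from 88.2 to 96.7%, was wider than the range of the 4 group means. The means were 92.6 ± 1.65% in Combo, 91.0 ± 2.93% in EPZ, 94.6 ± 2.56% in P38i and 93.0 ± 3.56% in Control (SD, n = 4 each). Since the rule fixed these values above 50%, they carry no test.

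Member coverage went with the total length that a library's islands covered, of which the members are themselves a large part. A member cannot be covered beyond its whole length, so the members' share tends to fall as the total rises. The 3 libraries with the least covered length, EPZ replicates 1 and 2 and Control replicate 4, had the 3 lowest values, and the 3 with the most, P38i replicates 1 and 3 and Control replicate 1, had the 3 highest. Covered length was 550 ± 41.8 Mb in Combo, 514 ± 54.3 Mb in EPZ, 604 ± 59.3 Mb in P38i and 574 ± 74.9 Mb in Control libraries (SD, n = 4 each). Members held 45.8 ± 2.65% of it in Combo, 48.3 ± 3.54% in EPZ, 42.7 ± 3.28% in P38i and 44.3 ± 4.43% in Control. The share was highest in EPZ replicate 1 (51.6% of 462 Mb) and lowest in P38i replicate 3, which had the most covered length (656 Mb). The part of covered length in these values was not tested here. Of 21225 members with a single lowest library, Control replicate 4 was the lowest in 3436, EPZ replicate 1 in 3360 and EPZ replicate 2 in 2968, against 132 for Control replicate 1. Leaving out a library added from 19 bins (P38i replicate 3) to 1291 bins (EPZ replicate 2) to the members.

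**Figure D2:**
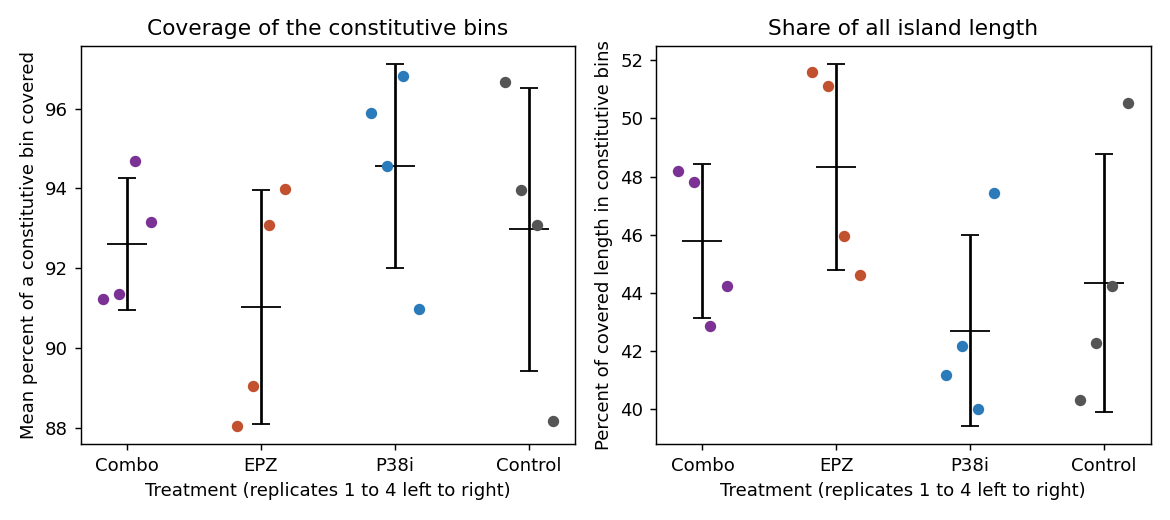
Mean percent of a constitutive bin covered by islands in each of the 16 libraries (points) with the mean and SD of each group of 4 (bars), in the order Combo, EPZ, P38i and Control. All libraries lie between 88.0 and 96.8% and the 4 groups overlap.

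The members were spread unevenly over the chromosomes. Chromosome 20 had the highest share, 22.1% of its bins, followed by chromosome 11 (20.5%), 5 (15.3%), 10 (14.3%) and 15 (12.6%). Chromosome 22 had 0.551%, chromosome 16 had 1.09%, chromosome 21 had 1.11% and chromosome 4 had 2.11%. The low shares did not all go with few islands. On chromosome 4, 28.9% of bins reached 50% in at least 1 library and 7.30% of those were constitutive, and on chromosome 16 the values were 20.4% and 5.32%. On chromosome 20, 44.3% of bins reached 50% somewhere and 49.8% of those were constitutive, and on chromosome 11 the values were 44.0% and 46.5%. Copy number, which differs between chromosomes in cancer lines, was not measured here. Assembly gaps count among the bins, so they lower the shares of all bins of a chromosome.

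**Figure D3:**
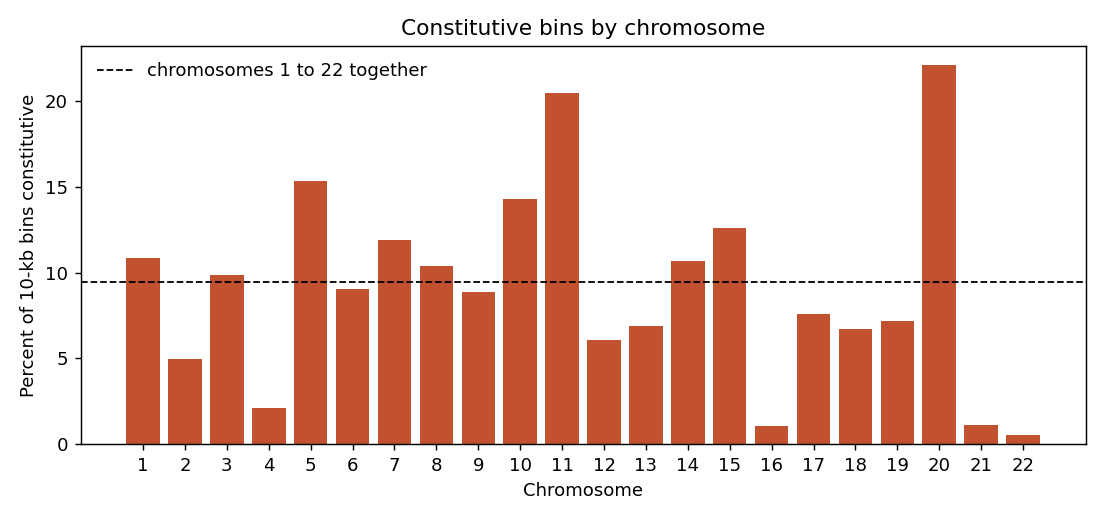
Percent of the 10-kb bins of each chromosome (x axis, 1 to 22) that were constitutive; the dashed line is the 9.43% over all 22. Chromosomes 20 (22.1%) and 11 (20.5%) stand highest, and chromosomes 4, 16, 21 and 22 lie at or under 2.11%.

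Adjacent members joined into 8283 blocks with a median length of 20 kb and a mean of 32.7 kb. Of these, 3889 (47.0%) were a single bin, while 542 blocks of 100 kb or more held 9212 members (34.0%). No protein-coding gene lay in 195 (36.0%) of these 542 long blocks and in 4677 (56.5%) of all blocks. At the block ends, the bin next to a block was variable in 93.0% of cases, low in 6.26% and empty in 0.749%, and the distance to which the island at the edge reached varied between libraries with a median SD of 3.74 kb.

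The longest block was 830 kb on chromosome 5 (chr5:168750001-169580000) and overlapped SLIT3, a secreted guidance protein that binds ROBO receptors. It was covered 96.2, 95.7, 97.1 and 97.5% in Combo, 92.6, 93.8, 96.6 and 97.3% in EPZ, 97.0, 95.5, 98.5 and 92.2% in P38i, and 98.8, 94.96, 94.0 and 90.3% in Control. No group stood apart, and Control held both the highest and the lowest library. The block was not 1 island in any library: it was broken into 21 to 34 pieces in Combo, 22 to 51 in EPZ, 10 to 48 in P38i and 12 to 61 in Control.

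The next blocks in length differed in gene content. A block of 650 kb on chromosome 6 (chr6:45970001-46620000) touched CLIC5 (an intracellular chloride channel family gene), ENPP4 and ENPP5 (ectonucleotidase family genes), RCAN2 (a regulator of calcineurin) and CYP39A1 (an oxysterol hydroxylase). LRFN2, a synaptic adhesion protein gene, lay whole in a block of 590 kb (chr6:40300001-40890000) and was covered 96.3% in its lowest library, 98.2% in the median and 99.4% in the highest. KIRREL3, an immunoglobulin-type adhesion gene, filled most of a block of 580 kb (chr11:126500001-127080000), with coverage of 84.6, 88.7 and 93.6% (lowest, median and highest library). PHACTR1, a regulator of phosphatase 1 and actin, had 93.5, 96.4 and 98.7% in a block of 550 kb (chr6:12640001-13190000). TSHZ2, a zinc finger homeobox factor, had 92.7, 96.2 and 97.6% in a block of 510 kb (chr20:52960001-53470000). SV2B, a synaptic vesicle glycoprotein, had 89.3, 95.1 and 97.1% in a block of 450 kb (chr15:91050001-91500000). The other 3 of the 10 longest blocks overlapped no protein-coding gene: chr8:93080001-93640000, chr20:60520001-61040000 and chr1:95300001-95760000. The 10 blocks were covered 93.0 to 98.5% on average over the 16 libraries, and at least 88.0% in the lowest library of each.

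The continuity of the islands varied widely between libraries of a group. A block lay inside a single island in 19.4 ± 6.19% of cases in Combo, 16.0 ± 8.76% in EPZ, 30.2 ± 13.0% in P38i and 26.2 ± 14.2% in Control (SD, n = 4 each). Single libraries ranged from 14.1 to 27.4% in Combo, from 7.55 to 25.8% in EPZ, from 14.2 to 43.9% in P38i and from 9.08 to 43.6% in Control, so the groups overlapped. In only 15 blocks was this so in all 16 libraries, and in none of the long blocks. Of the length of the long blocks, 4.39 ± 1.11% was not covered in Combo, 5.38 ± 1.81% in EPZ, 3.43 ± 1.55% in P38i and 4.57 ± 2.298% in Control.

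Gene content was not used by the rule. No annotated gene overlapped 35.3% of constitutive bins, against 40.7% of variable, 43.1% of low and 32.8% of empty bins. No protein-coding gene overlapped 57.7% of constitutive bins, against 63.1% of variable and 47.3% of empty bins. Constitutive bins held 3.36 protein-coding gene starts per Mb, against 2.86 in variable, 5.03 in low and 6.50 in empty bins. Bins next to each other share genes, so no test was made of these shares. The bins include assembly gaps, which hold neither islands nor genes. They raise the gene-free share of empty bins and lower their starts per Mb by an amount not measured here.

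Of 19126 protein-coding genes on chromosomes 1 to 22, 2092 (10.9%) had any base in a constitutive bin, 1167 (6.10%) had at least 50% of their span in constitutive bins and 591 (3.09%) their whole span. Genes wholly inside were short, with a median of 7.01 kb against 24.5 kb for all genes. A whole span must fit within a block of members, of median length 20 kb, so this criterion favours short genes in advance. The longest gene wholly inside was NCAM1, a neural cell adhesion gene of 317 kb. The share with at least 50% of the span inside was 7.66% for genes under 10 kb, 4.25% for genes of 30 to 100 kb and 11.8% for genes of 300 kb or more. Among other genes it was 9.77% of 17795 lncRNA genes and 6.25% of 1793 miRNA genes. In the account of gene lists below, a gene is inside where at least 50% of its span lay in constitutive bins, so 6.10% is the value over all protein-coding genes; neighbours within a cluster share bins and are not independent.

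Of 30 gene lists, the cornified envelope genes had the highest share inside and the olfactory receptors the next. Of the cornified envelope genes, which build the outer layer of skin and lie together on chromosome 1, 22 of 30 (73.3%) were inside, 20 with their whole span. SPRR2G was covered 88.7, 95.3 and 100% in the lowest, median and highest library. Shorter members varied far more: SPRR2B had 65.9, 89.8 and 100%, SPRR4 had 58.8, 100 and 100%, and LCE3A, named after its values were seen, had 0, 0 and 100%. A bin can thus be constitutive while a short gene inside it falls in a gap between islands.

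Olfactory receptors, the odorant-sensing G protein-coupled receptors of the nose, were inside in 172 of 391 cases (44.0%), 145 with their whole span. The share differed between clusters: 12 of 13 on chromosome 17, 13 of 17 on chromosome 6, 15 of 20 on chromosome 19, 18 of 25 on chromosome 9 and 81 of 171 on chromosome 11, against 8 of 61 on chromosome 1, 2 of 18 on chromosome 12 and 5 of 24 on chromosome 14. OR7C1 was covered 91.3, 97.8 and 100% in the lowest, median and highest library, and OR11A1 had 86.7, 97.5 and 100%. Of the taste receptors 6 of 28 were inside, and TAS2R38, TAS2R39, TAS2R40 and TAS2R60, bitter taste receptor genes of chromosome 7, were covered 100% in all 16 libraries.

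Beta-defensins, antimicrobial peptides of epithelia and the male reproductive tract, were inside in 14 of 39 cases, 12 of 13 on chromosome 20 and 2 of 19 on chromosome 8. DEFB119 was covered 100% in every library, and DEFB125 had 91.5, 100 and 100% in the lowest, median and highest library. Serpins, mostly protease inhibitors, were inside in 6 of 33 cases, with SERPINA11 at 84.5, 100 and 100% and SERPINA9 at 59.3, 93.3 and 100%. Many of these families have near-identical copies, between which reads may not be placed, and how the authors treated such reads is not given in the sources used here.

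Immune and liver genes were inside in part. Chemokines and their receptors were inside in 10 of 57 cases, among them CCL18, a T cell attractant (89.7, 100 and 100%), and CCR6, the receptor of CCL20 (82.4, 94.5 and 100%). Of 28 haematopoietic genes 5 were inside: CD2, a T cell adhesion receptor, whole (94.6, 100 and 100%), and CD3D, ICOS, IKZF1 and LCP2 in part; the last 4 were named after their values were seen. Cytochromes P450 were inside in 9 of 55 cases, with CYP2C18 at 83.5, 96.6 and 100%, CYP2C8 at 82.9, 94.2 and 100%, CYP3A4 at 81.7, 96.7 and 100% and CYP2B6 at 72.0, 91.1 and 97.0%. Of 30 hepatocyte genes 2 were inside, CYP3A4 and CRP, the acute-phase protein gene.

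Neuronal and adhesion genes varied by family. Potassium channel genes were inside in 14 of 94 cases, and 3 of the 4 with their whole span, KCNA2, KCNA3 and KCNA10 (voltage-gated channels of the Shaker family), are neighbours on chromosome 1. KCNA2 was covered 87.3, 95.8 and 100% and KCNA10 100% in every library. Clustered protocadherins were inside in 12 of 53 cases, but the alpha genes share their last exons and overlap each other. PCDHAC2 was covered 91.0, 97.8 and 100%, while PCDHB2 was covered 26.97, 47.4 and 75.5%, so the gene itself lay mostly in a gap within a constitutive bin in some libraries. Synaptic adhesion genes were inside in 3 of 43 cases (LRRTM3, NTM and TENM2, named after their values were seen) and collagens in 3 of 42, of which COL9A1, a cartilage collagen gene, was whole (90.7, 97.3 and 100%). PGR was covered 88.6, 95.6 and 98.4%.

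Developmental transcription factors, textbook targets of Polycomb, were inside about as often as all genes, although islands were more common among them. Of 81 developmental transcription factors 6 (7.41%) were inside, none of them whole: IRX2, ONECUT1, OTX2, PAX2, TBX15 and TFAP2B, named after their values were seen. Only 31 of the 81 had no island in any library, against 13936 of 19126 genes. Their mean coverage in Control was 20.3%, against 11.3% over all protein-coding genes. Being inside asks for broad coverage in every library, so a gene with a narrower island is not counted. None of the 39 HOX genes, the body-axis regulators, was inside. No library had an island in 28 of the 39, a share close to that over all genes (13936 of 19126). Zinc finger (ZNF) genes were inside in 8 of 497 cases (1.61%), with ZNF831 covered 92.9, 95.5 and 97.5% and ZNF334 97.7, 100 and 100%. None was inside among 76 ribosomal protein, 36 cell cycle, 28 housekeeping, 29 Polycomb subunit and 28 p38 pathway genes. No library had an island in any ribosomal protein, cell cycle or housekeeping gene, in 28 of the Polycomb subunit genes or in 25 of the p38 pathway genes. None of 19 GABA and glycine receptor genes was inside either, but only 3 of them had no island, and 5 had a base in constitutive bins. At 6.10% a short list would hold few genes inside, so these counts of 0 are a description. In the remaining lists the counts were small and the shares not far from the 6.10% over all genes. Inside were 2 of 55 keratins (3.64%), 5 of 94 keratin-associated proteins (5.32%) and 2 of 33 cadherins and other protocadherins (6.06%). So were 1 of 26 glutamate receptors (3.85%), 2 of 22 UDP-glucuronosyltransferases (9.09%) and 1 of 17 type I interferons (5.88%). The interferon was IFNK of keratinocytes (63.8, 100 and 100%).

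**Figure D4:**
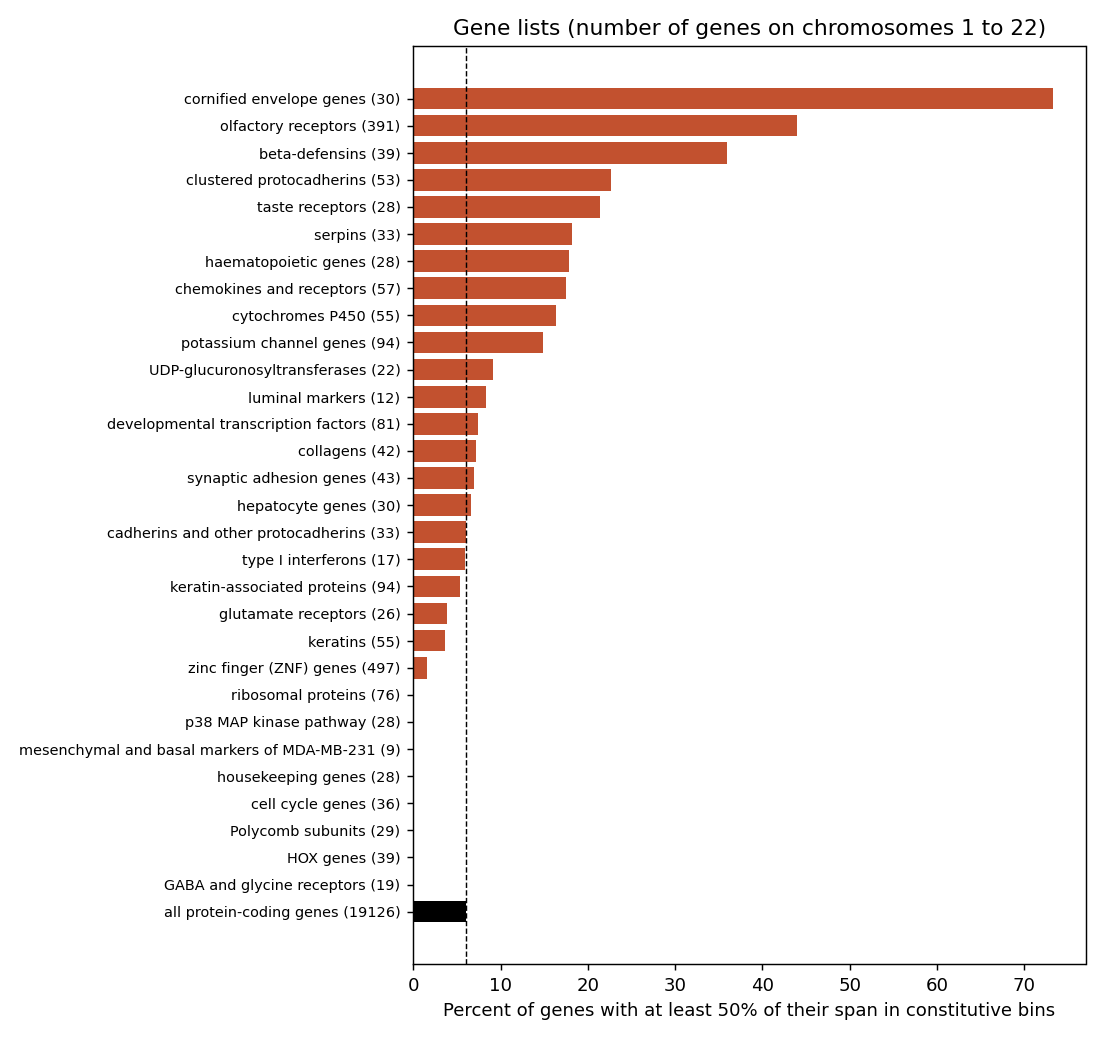
Percent of the genes of each list with at least 50% of their span in constitutive bins; the line marks the 6.10% over all protein-coding genes. Cornified envelope genes (73.3%) and olfactory receptors (44.0%) lie farthest to the right, and 8 lists lie at 0.

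Starts of genes in constitutive bins were poor in CpG. RefSeq promoter windows, from 250 bases before to 50 after the start, were matched for 15101 protein-coding genes, of which 905 had their window in a constitutive bin. A window was called CpG-rich where the ratio of observed to expected CpG was at least 0.6 and GC at least 50%, limits chosen after the data were seen. This held for 213 of the 905 (23.5%), against 41.9% in variable, 61.5% in low and 71.3% in empty bins and 64.0% over all windows. The median ratio was 0.252, against 0.767 over all windows, and the median GC content was 49%, against 63%. The letters CGCG occurred on either strand in 28.5% of windows in constitutive bins, against 65.4% of all, and the longer GCGCG, which contains CGCG, in 23.9% against 54.7%. The letters TATAAA occurred on either strand in 22.7% of windows in constitutive bins, against 9.71% of all. These matches describe the letters and not a bound factor. The rule may itself lower the CpG share, by an amount that was not tested. Islands left most CpG-rich starts in constitutive bins uncovered (below), and an uncovered stretch lowers the coverage of its bin. Clustered families also weigh on it. Without olfactory receptors, cornified envelope genes, beta-defensins and keratin-associated proteins, 211 windows in constitutive bins were CpG-rich and 527 CpG-poor, in place of 213 and 692.

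Islands left most of the CpG-rich starts uncovered, whether in a short gap between islands or beyond the end of a run of islands. These cases were not told apart in the values of this paragraph. Over the 16 libraries, CpG-rich windows in constitutive bins were covered 27.1% while their bins were covered 83.2%, a difference of -56.1 points; CpG-poor windows were covered 89.6% and their bins 92.1%, a difference of -2.45 points. Of the CpG-rich windows 6 of 213 were at least 50% covered in all 16 libraries and 64 in none, against 381 and 1 of 692 CpG-poor windows. The difference between CpG-rich and CpG-poor windows was -62.5 points (SD 4.97 over 16 libraries, from -70.6 to -53.4), lower in 16 of 16 libraries. Variable bins showed it too, with 6.16% in CpG-rich and 40.1% in CpG-poor windows of bins covered 43.7 and 47.1%, so it was not particular to the constitutive bins.

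The treatments did not separate at these starts. CpG-rich windows were covered 29.0, 19.6, 38.3 and 35.9% in Combo, 24.4, 23.1, 29.7 and 22.3% in EPZ, 25.6, 24.9, 41.6 and 19.4% in P38i, and 34.4, 19.4, 25.1 and 20.9% in Control. The groups overlapped over most of their range. The means were 30.7 ± 8.38% in Combo, 24.9 ± 3.31% in EPZ, 27.9 ± 9.58% in P38i and 24.9 ± 6.74% in Control (SD, n = 4 each). CpG-poor windows averaged 89.8 ± 3.14% in Combo, 87.2 ± 2.92% in EPZ, 92.1 ± 3.42% in P38i and 89.3 ± 4.18% in Control.

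Coverage was also taken by distance from the start. For 519 starts whose own bin and both neighbouring bins were constitutive, islands covered the base at a CpG-rich start (121 starts) in 29.1 ± 7.46% of cases in Combo, 25.2 ± 6.28% in EPZ, 30.4 ± 11.5% in P38i and 25.2 ± 5.63% in Control. From 5 to 10 kb away, where high coverage follows from the choice of starts, the values were 95.2 ± 1.45% in Combo, 94.8 ± 1.96% in EPZ, 96.9 ± 1.68% in P38i and 95.7 ± 1.85% in Control. At CpG-poor starts (398) the values were 92.3 ± 3.34% in Combo, 89.3 ± 2.21% in EPZ, 93.3 ± 3.22% in P38i and 90.6 ± 3.68% in Control. Of all 905 windows in constitutive bins, whatever their neighbouring bins, 46 had no island in any library, and 45 of these were CpG-rich. They included GNAL, TMEM260, SLC6A17 (a transporter of synaptic vesicles), MAST4 (a microtubule-associated kinase) and CACNA1A (a neuronal calcium channel subunit), named by how fully their bin was covered after the values were seen. The gap between islands around these 46 windows had a median of 3.48 ± 0.189 kb in Combo, 3.98 ± 0.830 kb in EPZ, 3.20 ± 0.535 kb in P38i and 3.43 ± 0.709 kb in Control (SD, n = 4 each). Some of these windows lay in far longer gaps, and the longest was between 757.8 and 2098.8 kb in every library.

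**Figure D5:**
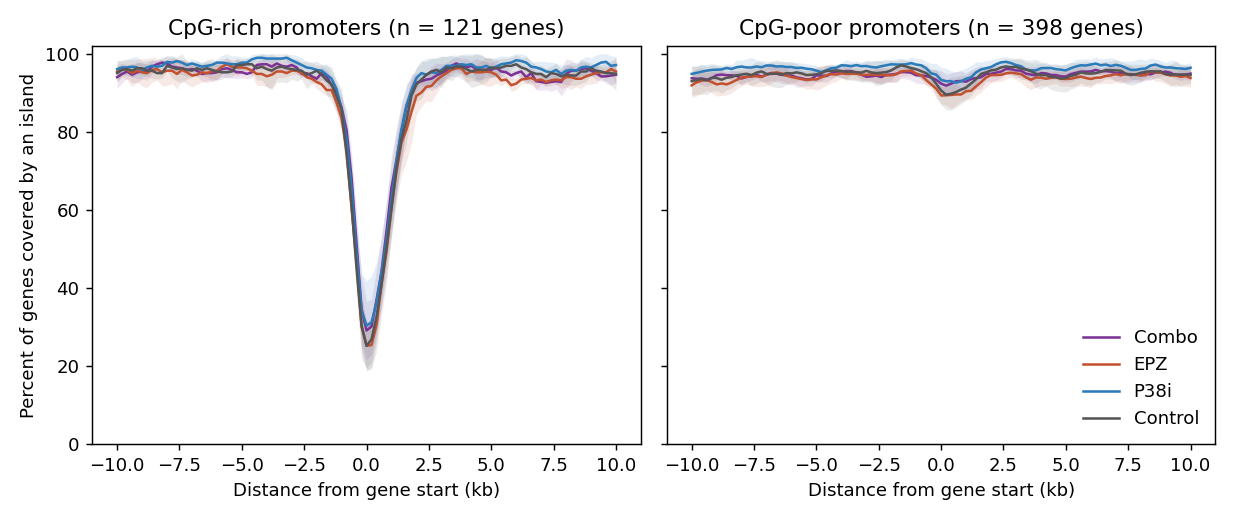
Percent of gene starts covered by an island (y axis) against distance from the start in kb (x axis), for CpG-rich (121) and CpG-poor (398) starts whose bin and neighbouring bins were constitutive; lines are means of the 4 libraries of a group and bands are SD. Coverage at CpG-rich starts lies between 25.2 and 30.4% in all 4 groups and from 94.8 to 96.9% at 5 to 10 kb, which the choice of starts sets high, while CpG-poor starts are covered 89.3 to 93.3%.

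Coverage was also compared between treatments bin by bin. Percent coverage was fitted with limma in 1 fit of the 16 libraries over the 87726 bins with a mean from 5 to 95%, and the p-values were adjusted over all of these; 14220 members were tested, and the 12885 with a mean above 95% were not. Since the rule holds every member between 50 and 100% in each library, their differences are bounded, and a low count of calls among them is in large part set by the selection and is given as a description. The 3 comparisons with Control share the Control libraries.

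For EPZ against Control, no member of 14220 passed an adjusted p of 0.05 by limma, against a background of 0.00342% of all tested bins (3 of 87726); 950 members had an unadjusted p under 0.05. For P38i against Control no member passed, and the background was 0%; 375 members had an unadjusted p under 0.05. For Combo against Control no member passed, against 0.0114% of all tested bins (10 of 87726, with 0.00456% higher and 0.00684% lower). An unadjusted p under 0.05 was found for 821 members. A share of 0.05 of members is expected under that limit without any difference. The unadjusted counts were not taken over all tested bins, so they have no background here and are not read as a result. Over all 27105 members the mean difference from Control was -1.94 points in EPZ, 1.58 points in P38i and -0.369 points in Combo, and 86.7% of members in EPZ, 92.3% in P38i and 88.1% in Combo lay within 10 points of Control. With covered length as a covariate, the median difference of tested members from Control turned to 1.08 points in EPZ, against -2.50 points without it. In Combo it turned to 1.06 points, against -0.50 points. Covered length sums the same islands that the bins measure, so this fit also takes out a change shared by all bins. The EPZ counts rested on single libraries. Without Control replicate 4, 347 of all tested bins and 1 member passed, and without EPZ replicate 4, 191 and 4 did. Without EPZ replicate 3 the counts were 18 and 1, and without Control replicate 1 they were 8 and 1. Over all libraries left out in turn, the background count ran from 0 to 347 for EPZ and from 1 to 103 for Combo, where 103 was without Control replicate 4; 1 member passed for Combo without Control replicate 1 and none otherwise.

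The members nearest to a call were single bins. At chr2:118050001-118060000, EPZ libraries were at 56, 56, 76 and 66%, against 100% in all 4 Control libraries (-36.5 points, SE 6.68, limma adjusted p = 0.0625). At chr3:87170001-87180000, Combo libraries were at 62, 72, 60 and 54%, against 100% in all 4 Control libraries (-38.0 points, SE 7.22, limma adjusted p = 0.0831). At chr5:150870001-150880000 the values went the other way. There all 4 Combo and all 4 EPZ libraries were at 100%, P38i libraries were at 92, 100, 100 and 100%, and Control libraries were at 92, 58, 68 and 60%; the limma adjusted p was 0.102 for Combo, 0.0744 for EPZ and 0.345 for P38i against Control.

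With the EZH2 inhibitor (8 libraries, Combo and EPZ) against without it (8 libraries, P38i and Control), 12 of 14220 members passed, all lower with the inhibitor, which is 0.0844% of members against a background of 1.22% of all tested bins (1.13% lower and 0.0958% higher). The median difference was -2.75 points over the tested members and -5.50 points over all tested bins, and covered length was 550 Mb in Combo and 514 Mb in EPZ, against 604 Mb in P38i and 574 Mb in Control on average. When covered length per library was a covariate, the median turned to 1.05 points over the tested members and was -0.03 points over all tested bins. No member then passed, and 28 of all tested bins did in place of 1072. An unadjusted p under 0.05 was found for 1337 members, in place of 1292 without the covariate. Covered length sums the same islands that the bins measure, so this fit also takes out a change shared by all bins. Why coverage was lower was not tested. The count of called members also rested on single libraries, as did that of all tested bins, given in brackets. It was 51 without EPZ replicate 4 (1778), 24 without Control replicate 4 (2115) and 20 without P38i replicate 4 (1750). It was 5 without EPZ replicate 1 or 2 (417 and 446) and 4 without Control replicate 1 (545). It was 3 without Combo replicate 1 or 4 (395 and 400) and 2 without P38i replicate 1 (256). It was 1 without P38i replicate 2 or 3 (421 and 304) or Control replicate 2 or 3 (289 and 315).

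The called member with the largest difference was chr1:237270001-237280000, within RYR2, the calcium release channel of heart muscle. It was covered 58, 60, 60 and 50% in Combo and 52, 62, 88 and 100% in EPZ, against 100, 100, 100 and 90% in P38i and 100, 100, 100 and 88% in Control. EPZ replicates 3 and 4 lay within the range of the libraries without the inhibitor, so the sides overlapped (-31.0 points, SE 6.75, limma adjusted p = 0.0298). At chr2:175240001-175250000, which held no annotated gene and lay 58.3 kb from ATP5MC3 (a subunit of mitochondrial ATP synthase), coverage was 74, 58, 74 and 66% in Combo and 56, 60, 84 and 80% in EPZ. It was 100% in all 4 P38i libraries and 100, 100, 100 and 88% in Control, so the sides did not overlap (-29.5 points, SE 5.71, limma adjusted p = 0.0175).

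A bin within FYB1, an adaptor of T cell receptor signalling (chr5:39180001-39190000), was covered 52, 67 and 100% in the lowest, median and highest library with the inhibitor, against 90, 100 and 100% without it (-28.3 points, SE 6.44, limma adjusted p = 0.0357). At chr1:70550001-70560000, in no gene, the values were 52, 67 and 90% with the inhibitor and 90, 100 and 100% without it (-27 points, SE 6.16, limma adjusted p = 0.0350). A bin within DCDC1, a doublecortin domain gene (chr11:30880001-30890000), had 52, 69 and 86% with the inhibitor and 82, 96 and 100% without it (-25.5 points, SE 6.36, limma adjusted p = 0.0483). In these 3 bins the sides touched or overlapped at their ends. The other 7 called members differed by -25.5 to -15.8 points; 3 of them lay in a protein-coding gene, TNN (tenascin N), EBF1 (a B cell transcription factor) and OVCH2 (a serine protease gene), and 4 in none.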

How the data were processed

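ChIPmentation libraries for H3K27me3 of MDA-MB-231 cells (4 groups of 4) were analysed; 16 IgG libraries were not analysed here. Per the submitters' processing notes the authors used SICER for islands, Bowtie2 2.3.4.1, bedtools 2.28.0, SAMtools 1.2, Picard, and Trim Galore with cutadapt and FastQC, on hg38; step order and SICER settings: not given in the sources used here. The deposited lists hold island positions only, in windows of 200 bp. Coverage therefore depends on depth and caller settings as well as on the mark.

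Percent of each 10-kb bin covered was computed from these positions and compared between groups with limma 3.58.1 in R 4.3.3 (trend and robust options, Benjamini-Hochberg adjustment over 87726 bins, threshold 0.05), after the script was tested on simulated data. Coverage and figures were made with pandas 2.3.3, numpy 2.4.6 and matplotlib 3.10.9 in Python 3.11.15. Genes were RefSeq genes of GRCh38.p14; promoter windows were 250 bases before to 50 after a start. Bins run to the last island or gene of a chromosome and include assembly gaps. Read depth is unknown, so no counting interval can be given. Members and the 30 gene lists were chosen with earlier results of these data known. Named were the 10 longest blocks, up to 4 genes per list with the whole span inside (longest first), the 5 largest called differences and, where none passed, the bins with the lowest p; other names are said to be chosen later. Alternatives were other bin sizes, coverage limits and filters, an arcsine scale, covered length as a covariate, a replicate block, and each library left out.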

Additional observations from a re-analysis of the deposited data

Results flagged for a closer look

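Of 103 sets of 4 library values examined with Dixon's test, 9 had a library apart from its group. In 7 of the 9, which are bins, the other 3 libraries were all at 100%, the highest value possible, where any lower value passes, so the usual rate of about 1 in 20 does not apply to them. Leaving out P38i replicate 4 added 583 bins to the members, against 19 to 59 bins for the other P38i libraries. In the bin within RYR2 (chr1:237270001-237280000), P38i replicate 4 was at 90% and Control replicate 4 at 88%, with their group's other libraries at 100%. Control replicate 4 was also apart at chr2:175240001-175250000, with 88% against 100% in the others, and in the bin within DCDC1 (chr11:30880001-30890000), with 90% against 100%. In the bin within FYB1 (chr5:39180001-39190000), P38i replicate 4 and Control replicate 1 were each at 90% against 100% in the other libraries of their groups. At chr1:70550001-70560000, P38i replicate 3 was at 92% against 100%. In the gene-free block of 520 kb on chromosome 20 (chr20:60520001-61040000), Control replicate 1 was covered 98.0%, against 93.8 to 94.2% in the other Control libraries.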

How the results depend on the processing

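The number of members depended on the coverage limit and bin size: 14556 at 75% and 1663 at 100% of a bin, 48532 bins of 5 kb (243 Mb) and 14923 of 20 kb (298 Mb); bins shifted by 5 kb gave 27106. Median block length was 10 kb at 75% and 10 kb at 100%. Genes with at least 50% of their span inside were 3.08% at 75% and 0.303% at 100%, and 3.09% had the whole span inside; olfactory receptors were 27.1% at 75%. The promoter difference was -46.8 points at 75% and within 1 SD of its value under 3 other definitions, all chosen after the data were seen. Called members are given here with the share of all tested bins called under the same setting. For EPZ against Control, 1 member was called without the filter on mean coverage (0.00512%), 1 on the arcsine scale (0.0581%) and 3 in 20-kb bins (0.168%). For Combo against Control, 1 was called without the filter (0.0247%). For the EZH2 inhibitor, 22 were called without the filter (0.581%) and 54 on the arcsine scale (1.88%). In 20-kb bins 123 were called (4.15%), and with covered length as a covariate 0 were (0.0319%). Members of 20 kb were chosen anew at that size, and 9987 of them were tested.

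With the replicate number as a block, 4 members were called for the EZH2 inhibitor (636 of all tested bins) and 0 in the other comparisons. Same-numbered libraries of other groups had correlations of -0.0685 to 0.0860 (24 pairs), and differently numbered ones -0.0701 to 0.0736, so the numbers are not shown to pair libraries. Leaving out each library gave 27124 to 28396 members, a block length of 20 to 20 kb, 0 to 4 called members for EPZ, 0 to 0 for P38i and 0 to 1 for Combo against Control, and 1 to 51 for the EZH2 inhibitor, whose count over all tested bins ran from 256 to 2115. Without the trend and robust options, 272 of all tested bins were called for EPZ and 139 for Combo against Control, in place of 3 and 10. Read depth and scores were not in the files used here, which limits every value to called or not called.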

Other observations

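On chromosome X, which the rule left out, the same criterion held for 373 of 15602 bins (2.39%), against 9.43% of bins on chromosomes 1 to 22. Among pseudogenes of chromosomes 1 to 22, 1399 of 14324 (9.77%) had at least 50% of their span in constitutive bins.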
